A study of Danio rerio with 24 samples.

Results

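The fatty acid binding proteins (FABPs) of the zebrafish liver were described from 9 listed symbols, namely fabp10a, fabp10b, fabp1a, fabp1b.1, fabp2, fabp3, fabp6, fabp7a and fabp11a, matched with case ignored to the genes of the deposited tables. Of these, 6 were found among 32520 genes, 29201 of which carried a symbol. They were fabp10a (ENSDARG00000038439), fabp10b (ENSDARG00000091101), FABP2 (ENSDARG00000006427), FABP3 (ENSDARG00000023290), FABP6 (ENSDARG00000044566) and fabp11a, which the tables list as fabp4a (ENSDARG00000017299) and which was matched by its RefSeq synonym. The symbols fabp1a, fabp1b.1 and fabp7a were not found and were dropped. A further 6 genes carried an FABP symbol. Among them were 2 genes listed as FABP1 and 2 listed as FABP7, and which zebrafish paralog each one is was not resolved, so they are given as neighbours of the family and not as members.

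Livers of 24 adult zebrafish of the ABTL strain were sequenced, with 3 males and 3 females in each of 4 groups. OF-training fish were overfed and trained in a swim tunnel, NF-training fish were fed normally and trained, OF-control fish were overfed and untrained, and NF-control fish were fed normally and untrained. Training comprised 20 sessions over 8 weeks, and overfeeding meant 9 mL of live shrimp for each fish. All fish were kept with 6 in a tank and fasted overnight before the liver was frozen. The tank of each fish is not named in the labels, so a group cannot be told apart from its tank, and p-values measure the spread between these fish. The libraries held 19315642 to 21399321 estimated counts each. Vitellogenin, the yolk precursor that egg-laying females make in the liver, took 0.00692% to 0.159% of the counts in males and 29.3% to 74.5% in females, with a female median of 70.3%.

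FABPs are small cytosolic proteins that fold into a barrel around a fatty acid, a bile acid or another lipid and carry it through the cell, between the membrane, the mitochondria, the lipid droplets and the nucleus. Each tissue of the body uses its own selection of family members. In the zebrafish the main FABP of the liver is fabp10a, and its promoter is widely used to drive transgenes in hepatocytes.

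Levels are given as CPM, counts relative to the size of a library after the edgeR scaling named TMM, which evens out the load of vitellogenin in females. Levels of one gene against another are given as TPM, which is per transcript length. On the TPM scale fabp10a was far above the other FABPs and ranked 3 among all genes by its mean over the fish, at 42537 TPM. It made up between 91.1% and 98.7% of all FABP transcripts in a fish, with a median of 97.0%. FABP3 came next with a mean of 1020 TPM and a median share of 2.58%. The mean of FABP2 was 86.8 TPM, but its median over all fish was 3.32 TPM, as 1 male held most of it. The mean of fabp4a was 17.7 TPM and that of fabp10b 2.97 TPM, while FABP6 had a mean of 0.225 TPM and a median of 0 TPM. The FABP genes together took 4.53% to 9.67% of all TPM in males and 0.998% to 7.0% in females. With vitellogenin genes taken out of the sum, the shares were 4.53% to 9.67% in males and 1.66% to 8.02% in females.

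Of the 6 members found, 5 passed the filter on low counts, and FABP6 did not. The filter was passed by 16223 genes, and a gene was called at an adjusted p (Benjamini-Hochberg, over all genes tested) under 0.05. Between the sexes 4 of the 5 tested members were called by edgeR, of which 3 were higher and 1 was lower in males. Of all genes tested, 45.8% were called, 23.2% as higher and 22.6% as lower in males. The median log2 fold change of the 5 tested members was 0.68, against 0.06 over all genes tested. Male and female livers differed in almost every second gene, so a call between the sexes does not set these members apart.

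The liver-type members come first. In OF-training fish fabp10a was at 14035, 8795 and 10631 CPM in males and 7003, 5824 and 1860 CPM in females. NF-training males had 6672, 5840 and 6251 CPM and NF-training females 3271, 5412 and 9825 CPM. The OF-training males lay above all other fish of their group, whereas in the NF-training group the highest liver was a female, replicate 3. In OF-control fish the level was 6202, 7717 and 5131 CPM in males and 4758, 4861 and 5297 CPM in females. NF-control males had 6204, 5078 and 9063 CPM and NF-control females 5037, 3451 and 2681 CPM. Every male lay above the median of the females, while the ranges of the sexes overlapped in the NF-training and OF-control groups.

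Over all groups fabp10a averaged 7635 ± 2634 CPM in males and 4940 ± 2108 CPM in females (SD, n = 12 each). The log2 fold change of males over females was 0.61 (SE 0.22), with an adjusted p of 0.0252 in edgeR's quasi-likelihood test. Within single groups it was 1.19 (SE 0.42) in OF-training, 0.02 (SE 0.41) in NF-training, 0.35 (SE 0.41) in OF-control and 0.87 (SE 0.41) in NF-control livers, with 3 males and 3 females each. In none of the 4 groups alone did fabp10a pass the adjusted test, and the smallest adjusted p was 0.0516 in OF-training livers. The NF-training female with 9825 CPM also had the lowest vitellogenin share of any female, 29.3% of its counts. The same library had the highest biliary marker sum, 554 CPM against at most 465 CPM elsewhere, the lowest exocrine pancreas sum, 2.73 CPM against at least 26.3 CPM, and the lowest erythrocyte sum, 8.58 CPM against at least 37.7 CPM, and their part in its levels was not tested. The fish with the least fabp10a, the OF-training female replicate 3 at 1860 CPM, also stood apart. It had the highest oocyte and ovary marker sum, 3.38 CPM against at most 1.14 CPM elsewhere, and a hepatocyte marker sum of 27232 CPM. The part of these in its levels was not tested either. Of the 8 hepatocyte markers, 3 were called as higher in males and 0 as lower, where 23.2% of all genes tested were higher and 22.6% lower. The 3 were apoa1b, apoa2 and FGB. The markers tfa, serpina1, TTR, CP and fetub were not called, with adjusted p-values of 0.143 to 0.653 by edgeR. Summed, the 8 markers ran from 53358 to 124373 CPM in males and from 18642 to 76061 CPM in females, and their part in the difference of fabp10a was not tested. Over the 24 fits that each left out 1 fish fabp10a kept its call, with adjusted p-values of 0.00275 to 0.0492 by edgeR. The call was lost in 2 of 14 other alternatives, with a highest adjusted p of 0.154 in the 6 NF-control fish alone. A pair of fish, NF-training replicate 3 and NF-control replicate 4, was left out after the data were seen. Without this pair the log2 fold change of fabp10a was 0.75 with an adjusted p of 0.0038. NF-training replicate 3 was the female with the most fabp10a, so leaving it out favours this difference.

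**Figure D1:**
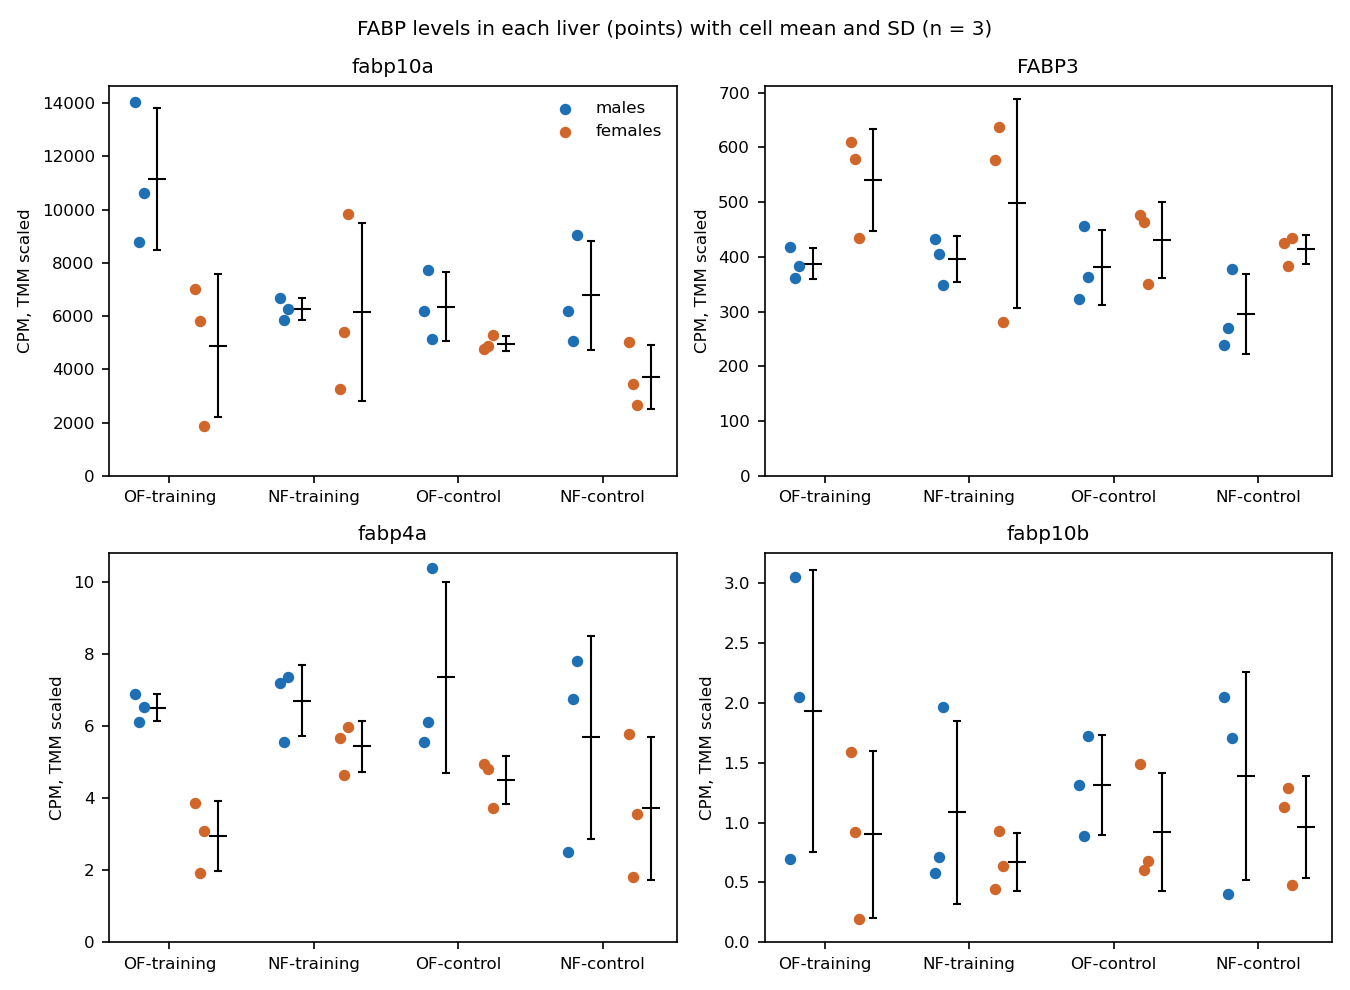
Levels of fabp10a, FABP3, fabp4a and fabp10b in CPM (TMM scaled, y axis from 0) in each liver, by group and sex on the x axis. Points are single fish, black bars the mean and SD of the 3 fish of a cell. The mean of the OF-training males stands above those of the other cells for fabp10a. Their lowest fish, at 8795 CPM, lies below an NF-control male at 9063 CPM and 1 NF-training female at 9825 CPM. FABP3 is lower in males than in females on this scale, a direction that turns round with library size alone or TPM.

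Ordered by mean level, the cell of OF-training males led for fabp10a with 11153 ± 2659 CPM (SD, n = 3). It was followed by NF-control males with 6782 ± 2054 CPM, OF-control males with 6350 ± 1299 CPM and NF-training males with 6254 ± 416 CPM. Only the gap between the first and second of these cells was larger than the SDs of the neighbours. Below them came NF-training females with 6169 ± 3342 CPM, OF-control females with 4972 ± 286 CPM, OF-training females with 4896 ± 2694 CPM and NF-control females with 3723 ± 1202 CPM. These neighbours differed by less than their spread.

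The paralog fabp10b, a second liver-type gene of the fish, was sparse. Its highest liver was an OF-training male at 3.04 CPM and its lowest an OF-training female at 0.193 CPM. The male median was 1.51 CPM and the female median 0.801 CPM, and the sexes overlapped in all 4 groups. The log2 fold change of males over females was 0.70 (SE 0.33) with an adjusted p of 0.0834 by edgeR, and 8 of 12 males lay above the female median. It passed in 3 of the fits that left out 1 fish, with an adjusted p of 0.0339 without NF-control replicate 5, 0.0367 without OF-control replicate 4 and 0.0496 without OF-training replicate 1. Over the fits that each left out 1 fish the adjusted p lay between 0.0339 and 0.174.

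FABP3 is the heart-type member, which in mammals serves fatty acid use in heart and skeletal muscle. OF-training livers had 417, 361 and 384 CPM in males and 609, 579 and 435 CPM in females. NF-training livers had 432, 406 and 349 CPM in males and 577, 636 and 281 CPM in females. All OF-training males were below all OF-training females, while the NF-training female with the lowest vitellogenin share had less FABP3 than any male of its group. OF-control livers had 324, 456 and 363 CPM in males and 477, 463 and 351 CPM in females, and NF-control livers had 239, 271 and 378 CPM in males and 425, 384 and 434 CPM in females. The NF-control sexes did not overlap, whereas the OF-control sexes did.

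FABP3 averaged 365 ± 63.6 CPM in males and 471 ± 110 CPM in females (SD, n = 12 each). Relative to the TMM scale it was lower in males, with a log2 fold change of -0.37 (SE 0.13) and an adjusted p of 0.0191 by edgeR. On the TPM scale its direction turned round, with 933 to 1309 TPM in males and 711 to 1121 TPM in females and a log2 fold change of 0.29 on log2(TPM + 1) (adjusted p = 0.00368, limma). With library size alone it was 1.07. These scales moved the median of all genes tested to 0.48 and 1.44, so that FABP3 stood at -0.19 and -0.37 relative to the median gene on the log2 scale, against -0.43 with TMM. On log2(TPM + 1) over all genes without a filter it stood at 0.15 relative to the median gene. All 3 tested muscle markers, ckma, actc1b and MYL7, were called as higher in males, where 23.2% of all genes tested were. Of these markers ckma was at 0 counts in 11 of 24 fish. The sum of the 4 muscle markers found was 112 CPM in 1 male, OF-training replicate 6, and at most 15.7 CPM elsewhere. Their part in the level of FABP3 was not tested. The call with TMM was lost in 9 of the 24 fits that each left out 1 fish, all of them females, with a highest adjusted p of 0.0924 without NF-training replicate 2.

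**Figure D2:**
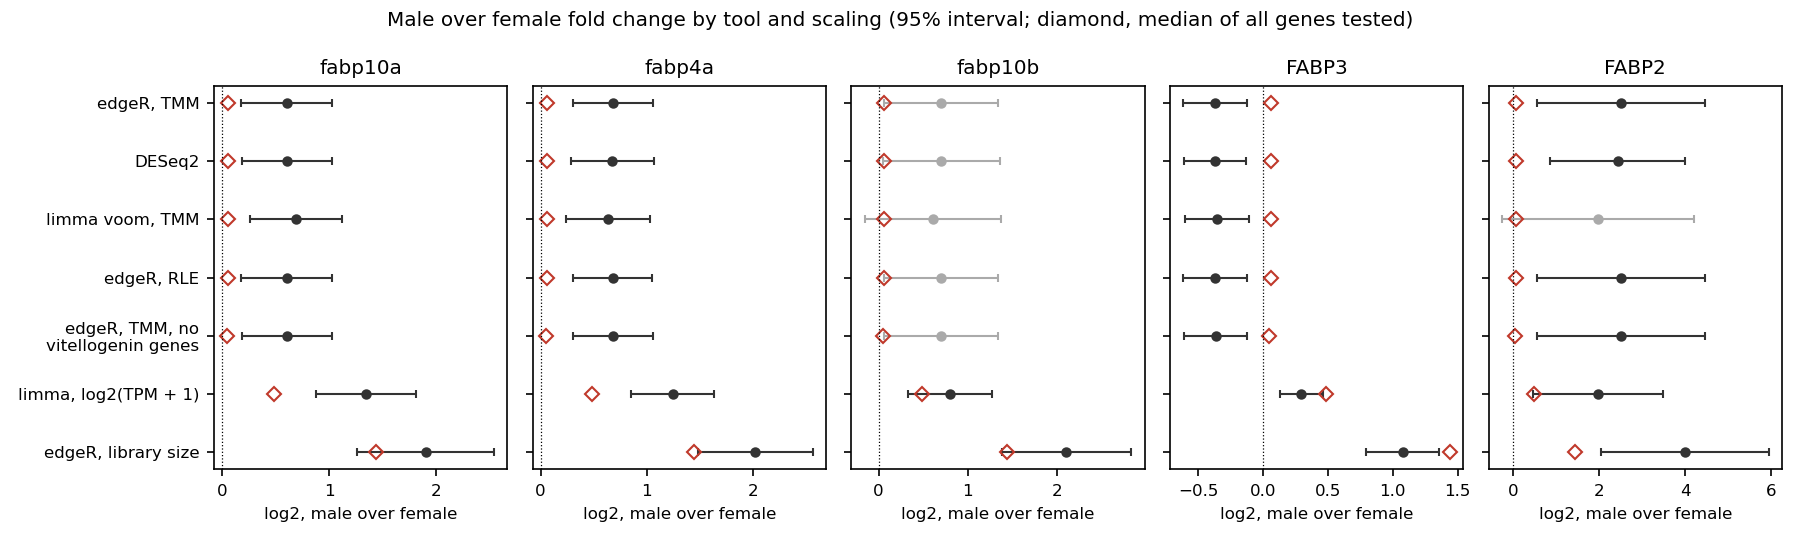
Log2 fold change of males over females (x axis) for the 5 tested members under 7 combinations of tool and scaling (y axis). Circles and bars are the estimate and its 95% interval, black where the adjusted p was under 0.05 and grey where it was not, and red diamonds are the median of all genes tested in the same fit. FABP3 is at -0.37 with TMM, at 0.29 on log2(TPM + 1) and at 1.07 with library size alone, below the diamond each time.

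As a measure that no scaling of a library can move, the TPM of one member was divided by that of another inside each fish. These 3 ratios were chosen after the levels were seen, when fabp10a and fabp4a were higher and FABP3 was lower in males with TMM. For the ratios to FABP3 the p-values thus repeat those differences on the same fish and are no separate support. The adjustment covers the 3 chosen ratios alone. The ratio of fabp10a to FABP3 had a lowest value of 36.0, a median of 48.3 and a highest value of 84.6 in males, against 10.7, 25.5 and 86.9 in females. All 12 males were above the female median, and the female at 86.9 was again NF-training replicate 3. The male ratio was 2.07-fold higher on the geometric mean (exact permutation of sex within groups, two-sided p = 0.00113, adjusted over 3 ratios 0.00169). The ratio of fabp4a to FABP3 was 2.06-fold higher in males, again with all 12 males above the female median (exact permutation p = 0.000325, adjusted 0.000975). For fabp10a over fabp4a the male minus female difference was 0.0041 on the log2 scale, with 7 of 12 males above the female median (exact permutation p = 0.988).

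**Figure D3:**
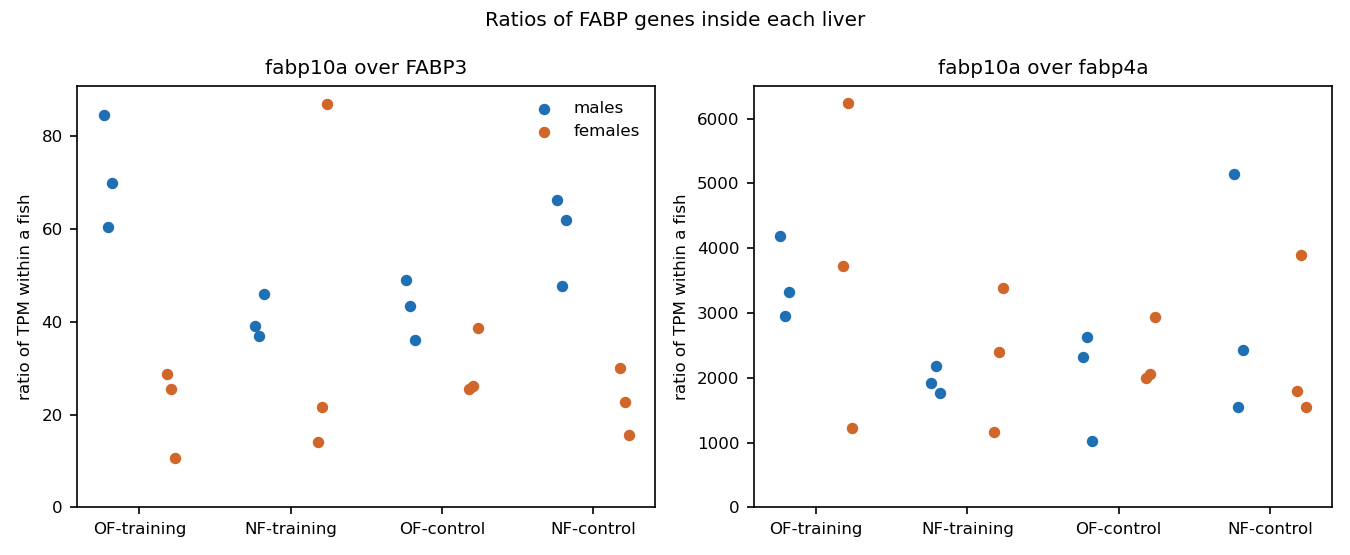
Ratio of TPM within a fish (y axis from 0) of fabp10a to FABP3 and of fabp10a to fabp4a, by group and sex on the x axis, each point 1 liver. For fabp10a over FABP3 the males run from 36.0 to 84.6 and lie above all females of their group except in the NF-training group, where 1 female is at 86.9, and the OF-control group. For fabp10a over fabp4a the sexes are mixed.

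The gene listed as fabp4a, also known as fabp11a, belongs to the branch of the family that includes the adipocyte FABP of mammals. OF-training males had 6.90, 6.12 and 6.55 CPM and OF-training females 3.86, 1.92 and 3.09 CPM. NF-training males had 7.20, 5.57 and 7.38 CPM and NF-training females 5.69, 4.64 and 5.99 CPM. Males were above all females in the OF-training group and overlapped with them in the NF-training group. OF-control males had 5.56, 6.12 and 10.4 CPM against 4.95, 4.81 and 3.74 CPM in females, and NF-control males had 2.50, 6.77 and 7.81 CPM against 5.79, 1.82 and 3.55 CPM in females. The lowest male was NF-control replicate 4.

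Over all groups fabp4a averaged 6.57 ± 1.82 CPM in males and 4.15 ± 1.41 CPM in females (SD, n = 12 each). The log2 fold change was 0.68 (SE 0.19) with an adjusted p of 0.00577 by edgeR, and 11 of 12 males lay above the female median. It kept its direction and its call in each of the 24 fits that left out 1 fish, with adjusted p-values of 0.000823 to 0.0133. Of the 2 adipocyte markers found, plin1, which coats the fat droplet of adipocytes, was at 0 counts in 20 of 24 fish, and cfd, which adipocytes and other cells secrete, was higher in males with 0.62 (SE 0.24, adjusted p = 0.0391). Their sum was highest in NF-control replicate 4 with 65.2 CPM, the male with the least fabp4a, and at most 18.9 CPM elsewhere. The part of fat tissue in the level of fabp4a was not tested.

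FABP2 is the intestinal member, which carries dietary fatty acids in enterocytes. OF-training males had 6.51, 8.27 and 13.9 CPM and OF-training females 0.908, 1.69 and 2.32 CPM. NF-training males had 9.71, 0.894 and 0.683 CPM and NF-training females 3.12, 7.06 and 0.248 CPM. Only in the OF-training group were the males above all females. OF-control males had 2.22, 7.59 and 1.22 CPM and OF-control females 2.31, 0.10 and 0.764 CPM. NF-control males had 704, 16.0 and 0.210 CPM and NF-control females 2.41, 0.859 and 8.55 CPM. NF-control replicate 4 was thus far above every other liver, while NF-control replicate 6 was the lowest of all males.

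The gene listed as FABP1 with the identifier ENSDARG00000059227, whose mammalian namesake is abundant in liver and intestine, was highest in the same fish. It was at 118 CPM in NF-control replicate 4 and at 0.752 and 0.0599 CPM in the other NF-control males. The next highest livers were OF-control males at 15.7, 5.26 and 2.33 CPM, and no female exceeded 0.960 CPM. The OF-control male with 15.7 CPM had 1.22 CPM of FABP2. In OF-control females it was at 0 counts in all 3 fish, where 3 counts per library would come to a mean of 0.268 CPM, so that the OF-control male mean of 7.77 CPM was at least 29.0-fold higher. Without OF-control replicate 3 the male mean was 3.79 CPM and the bound 14.2-fold. These bounds cover counting error only. Over all groups the log2 fold change of males over females was 6.79 (SE 1.20) with an adjusted p of 6.75e-05 by edgeR. Without NF-control replicate 4 it was 3.96 (adjusted p = 0.000919 by edgeR). That was the highest adjusted p of the 24 fits that each left out 1 fish. The call was lost in 1 of 13 other alternatives. The size of this fold depends on the few counts of the females.

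NF-control replicate 4 was also the highest liver for the summed markers of enterocytes, macrophages and adipocytes. Summed over the 4 enterocyte markers found, NF-control replicate 4 had 240 CPM, against a range of 1.65 to 7.82 CPM and a median of 3.55 CPM in the other 23 fish. Of the 4 markers 3 were highest in that fish, namely VIL1, a protein of the brush border, with 8690 counts, cdx1b with 1656 counts and AGR2 with 200 counts, and SLC10A2, the bile acid uptake carrier of the ileum, was at 0 counts there. Its 8 hepatocyte markers summed to 53358 CPM, within the range of 18642 to 124373 CPM of the other livers. Its macrophage markers summed to 209 CPM, against at most 127 CPM elsewhere, and its adipocyte markers to 65.2 CPM, against at most 18.9 CPM. In males cd74a reached 448 TPM, but the macrophage markers marco and csf1ra were at most 4.06 and 1.12 TPM. Both were highest in females, at 19.2 and 1.89 TPM. Of the adipocyte markers plin1 was at most 0.195 TPM in males, where cfd reached 218 TPM. The 2 sums thus rest mainly on cd74a and on cfd. The part of gut tissue or of other cells in the FABP2 level of NF-control replicate 4 was not tested. In a bulk sample, fewer cells of a type and less RNA per cell cannot be told apart.

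For FABP2 the log2 fold change of males over females was 2.51 (SE 0.997) with an adjusted p of 0.0437 by edgeR, and 8 of 12 males lay above the female median. Without NF-control replicate 4 it was 1.36 (SE 0.65) with an adjusted p of 0.0955, and over the 24 fits that each left out 1 fish the adjusted p lay between 0.0163 and 0.0955. The call was lost in 13 of these fits and also with limma voom (adjusted p = 0.167). Of the 3 tested enterocyte markers, cdx1b, a regulator of intestinal genes, was higher in males with 1.78 (SE 0.40, adjusted p = 0.000922), and the part of such transcripts in the sex difference of FABP2 was not tested.

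**Figure D4:**
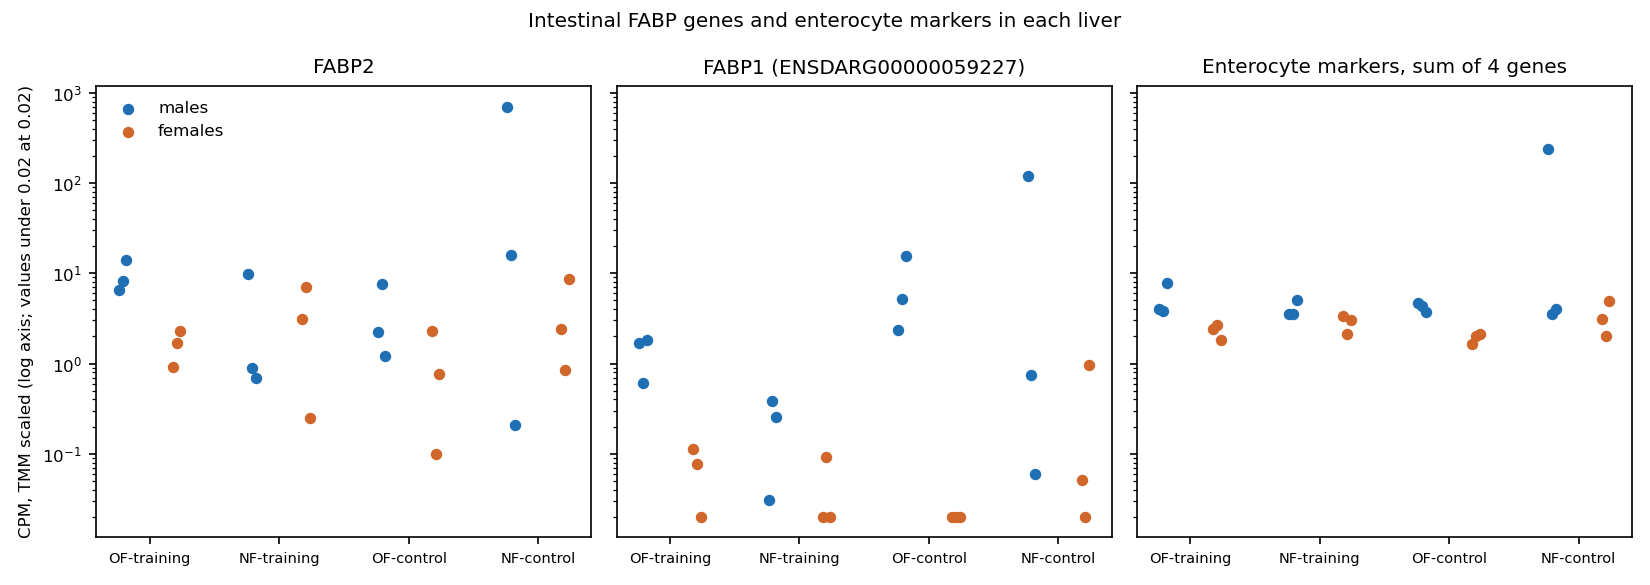
FABP2, the gene listed as FABP1 (ENSDARG00000059227) and the sum of 4 enterocyte markers in CPM on a log axis, by group and sex on the x axis, each point 1 liver. Values under 0.02 are drawn at 0.02. NF-control replicate 4, a male, is at 704, 118 and 240 CPM, the highest liver of each panel.

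FABP6 binds bile acids in the ileum. It was at 0 counts in 19 of 24 livers, where 3 counts would come to 0.0683 to 0.0962 CPM in males and 0.106 to 0.341 CPM in females. The only liver with more than 5 counts was OF-training replicate 6, a male, with 24 counts or 0.711 CPM. NF-control replicate 4 had 5 counts of FABP6. The OF-training male also had the highest sum of the 4 muscle markers, 112 CPM against at most 15.7 CPM elsewhere, and the highest sum of the 3 neural markers, 2.28 CPM against at most 0.387 CPM elsewhere. Their part in its FABP6 count was not tested. As FABP6 did not pass the filter on low counts, it was not compared between groups in the edgeR fit of 16223 genes.

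Of the 2 genes listed as FABP7, a brain-type member that glia use, ENSDARG00000007697 was expressed in every liver. It averaged 11.0 ± 10.8 CPM in males and 21.6 ± 14.6 CPM in females (SD, n = 12 each), with a log2 fold change of -1.31 (SE 0.48) and an adjusted p of 0.0287 by edgeR. The sexes differed most in NF-control livers, with 2.78, 3.17 and 2.13 CPM in males against 10.4, 30.5 and 45.1 CPM in females. In OF-control livers they overlapped, with 10.1, 28.1 and 36.0 CPM in males and 30.6, 5.91 and 20.7 CPM in females. The interaction of sex and overfeeding in untrained fish had an adjusted p of 0.728 in edgeR's test over all genes, with an estimate of 3.78 on the log2 scale (SE 1.04). The call was lost in 6 of the 24 fits that each left out 1 fish (NF-control replicates 4, 5 and 6 and NF-training replicates 3, 4 and 5), with a highest adjusted p of 0.0830 and a log2 fold change of -0.99 without NF-training replicate 3. It was also lost in 6 of 14 other alternatives, with -0.04 (adjusted p = 0.944) for library size alone and an adjusted p of 0.166 without both NF-training replicate 3 and NF-control replicate 4. The neural and glial markers GFAP, ELAVL3 and mbpa were at 0 counts in 15, 18 and 4 of 24 livers.

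Within single groups few sex differences of the members were called, with 3 fish against 3. In OF-training livers 1 of 5 tested members was called, namely fabp4a with a log2 fold change of 1.15 (SE 0.40, adjusted p = 0.0477 by edgeR), where 18.7% of all genes tested were called. In NF-control livers 1 of 5 was called, FABP2 with 5.94 (SE 1.81, adjusted p = 0.0339), and 14.2% of all genes were called. This FABP2 difference was not refitted without replicate 4, a male with 704 CPM. In NF-training livers 0 of 5 were called against 10.1% of all genes, and in OF-control livers 0 of 5 against 20.6%, also with 0 of 5 at an unadjusted p under 0.05 in both groups by edgeR. Of all 16223 genes, 4167 in NF-training and 5351 in OF-control livers stood at an unadjusted p under 0.05.

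Overfeeding and training were then compared across both sexes. No member was called by edgeR in any of these comparisons, which share groups with each other. For OF-control against NF-control 0 of 5 tested members and 0% of all genes were called by edgeR. At an unadjusted p under 0.05 stood 1 member, and 1829 of all 16223 genes. DESeq2 called 1 member, FABP2, and 77 genes in all, and limma voom 0 members and 0 genes. The log2 fold change of FABP2 was -4.85 (SE 1.43, adjusted p = 0.237 by edgeR). Without NF-control replicate 4 it was -1.47 with an adjusted p of 0.684, and over all alternatives the adjusted p ran from 0.0116 with DESeq2 to 0.713. The other 4 members lay between -0.07 and 0.31, with adjusted p-values of 0.686 to 0.970.

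For NF-training against NF-control 0 of 5 members were called by edgeR, against 0.173% of all genes. At an unadjusted p under 0.05 stood 1 member, and 1806 of all 16223 genes. DESeq2 called 0 members and 160 genes in all, and limma voom 0 members and 39 genes. FABP2 had a log2 fold change of -3.69 (SE 1.44, adjusted p = 0.348), and without NF-control replicate 4 one of -0.65 with an adjusted p of 0.866. The other members lay between -0.43 and 0.39. The gene listed as FABP1 (ENSDARG00000059227) had -7.24 (SE 1.58, adjusted p = 0.0603), and -2.37 with an adjusted p of 0.632 without the same fish. It passed without NF-control replicate 5 (adjusted p = 0.0318) or replicate 6 (0.0210), and its adjusted p over the 24 fits that each left out 1 fish lay between 0.0210 and 0.632. It also passed with DESeq2 (adjusted p = 0.00626) and with a mean of at least 10 counts (0.0477), and over the alternatives other than leaving out 1 fish the adjusted p ran from 0.00626 to 0.788.

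For OF-training against OF-control 0 of 5 members were called by edgeR, against 0.00616% of all genes. At an unadjusted p under 0.05 stood 0 members, and 854 of all 16223 genes. DESeq2 called 0 members and 8 genes in all, and limma voom 0 members and 0 genes. The log2 fold change of fabp10a was 0.42 (SE 0.30, adjusted p = 0.976), with a 95% interval of -0.18 to 1.01. For OF-training against NF-training 0 of 5 members and 0% of all genes were called by edgeR. At an unadjusted p under 0.05 stood 0 members, and 1461 of all 16223 genes. DESeq2 called 0 members and 13 genes in all, and limma voom 0 members and 0 genes. In this comparison fabp10a was at 0.25 by edgeR (SE 0.30, 95% interval -0.35 to 0.85). For OF-training against NF-control 0 of 5 members were called by edgeR, against 0.00616% of all genes. DESeq2 called 0 members and 113 genes in all, and limma voom 0 members and 2 genes. At an unadjusted p under 0.05 in edgeR stood 2 members, and 1730 of all 16223 genes. Of the 2 members, FABP2 was at -3.80 (SE 1.32, adjusted p = 0.283 by edgeR), and at -0.35 with an adjusted p of 0.960 without NF-control replicate 4. The other of these members, FABP3, was at 0.39 (SE 0.18, unadjusted p = 0.0389, adjusted p = 0.434 by edgeR). The level of fabp10a differed by 0.58 (SE 0.30, adjusted p = 0.516).

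**Figure D5:**
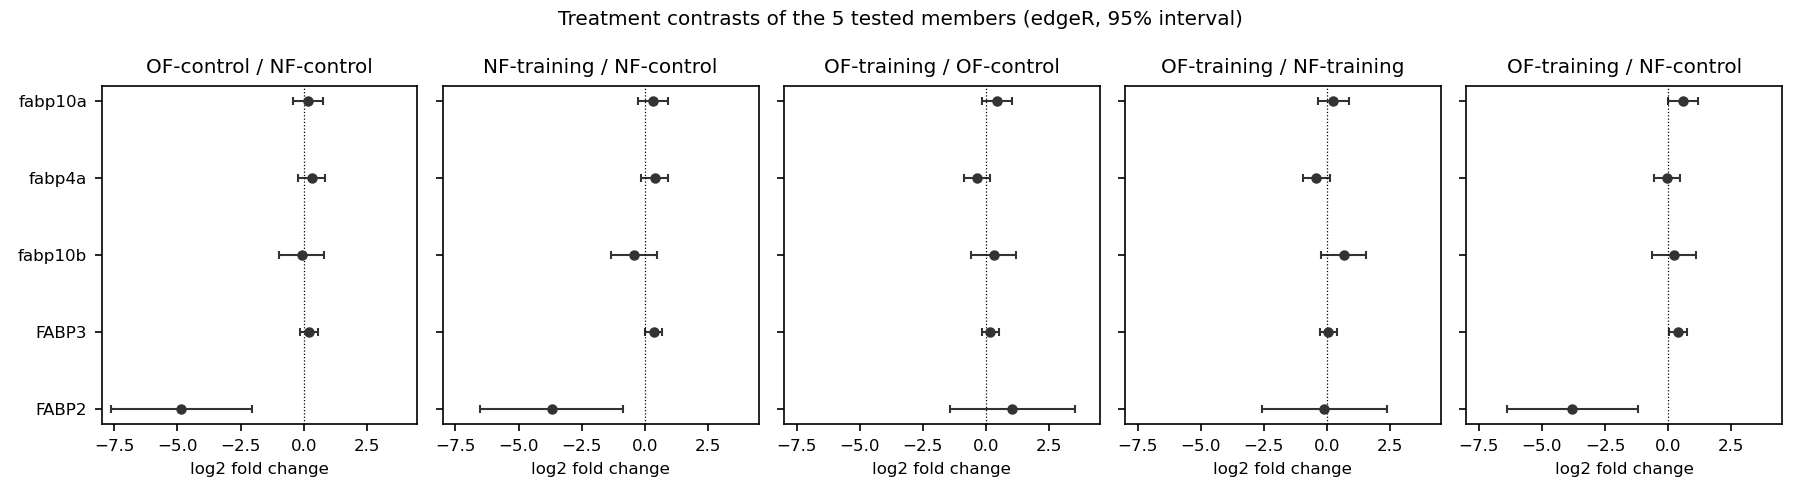
Log2 fold change (x axis) of the 5 tested members (y axis) in 5 treatment comparisons over both sexes, by edgeR, with 95% intervals. For fabp10a, fabp4a, fabp10b and FABP3 the estimates lie between -0.43 and 0.66. FABP2 reaches -4.85 in OF-control against NF-control, and -1.47 without NF-control replicate 4.

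The interaction of training and feeding called 0 of 5 members and 0% of all genes, with 1 member, FABP2, at an unadjusted p under 0.05 by edgeR. The interaction of sex and overfeeding called 0 of 5 members and 0% of all genes, with 0 members at an unadjusted p under 0.05, and that of sex and training 0 of 5 and 0%, with 1 member, again FABP2, at an unadjusted p under 0.05. Of all 16223 genes, 725, 903 and 1212 stood at an unadjusted p under 0.05 in these 3 interactions. DESeq2 and limma voom also called 0 members in the 3 interactions.

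Within males the level of fabp10a was 8795 to 14035 CPM in OF-training livers. All OF-control males, with 5131 to 7717 CPM, and all NF-training males, with 5840 to 6672 CPM, were below this. The NF-control males, with 5078 to 9063 CPM, overlapped with the OF-training males. OF-training against NF-control was not fitted within a sex. The log2 fold change of OF-training males was 0.81 (SE 0.41, unadjusted p = 0.0630, adjusted p = 0.998) against OF-control males and 0.83 (SE 0.41, unadjusted p = 0.0569, adjusted p close to 1) against NF-training males, by edgeR. In females it was -0.02 (SE 0.41) and -0.33 (SE 0.41). Whether the sexes differed in these effects in overfed fish was not tested. Among males 0 of 5 members were called in any of the 4 treatment comparisons by edgeR, where 0.0247% of all genes were called for OF-control against NF-control, 0% for NF-training against NF-control, 0.0185% for OF-training against OF-control and 0.0616% for OF-training against NF-training. Among females 0 of 5 members and 0% of all genes were called in each of the 4. At an unadjusted p under 0.05 stood FABP2 in males, for OF-control and for NF-training against NF-control, and fabp4a in females, for OF-training against NF-training with -0.89 (SE 0.40, adjusted p = 0.455).

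The members were set against the vitellogenin share of the counts among the 12 females, a relation that NF-training replicate 3 prompted and that was looked at on the same fish. In all 7 forms of coefficient were computed for the 5 tested members, 35 coefficients, of which 6 had a permutation p under 0.05 and none had one after adjustment over the 35, where the lowest was 0.150. For fabp10a Pearson's r was -0.66 (permutation p = 0.0226) and Spearman's rho -0.78 (permutation p = 0.00428), with p-values of 0.113 and 0.0214 when adjusted over the 5 members alone. Without NF-training replicate 3 they were -0.43 (permutation p = 0.178) and -0.71 (permutation p = 0.0181) over 11 fish. Pearson's r was thus weaker without that fish, and its permutation p was no longer under 0.05. Without the 2 females farthest from the median share r was -0.55 (permutation p = 0.0966) and rho -0.77 (permutation p = 0.0128) over 10 fish. With the mean of each group taken off, r was -0.69 (exact permutation within groups, p = 0.0394, adjusted over the 5 members 0.197). For the other 4 members 1 of the 28 coefficients had a permutation p under 0.05, the rho of FABP3 without the 2 farthest females, -0.68 (permutation p = 0.0345).

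The genes around the family were read from lists of the same pathway. Of 12 genes for fatty acid uptake and activation found, 8 were tested, and 3 were higher and 2 lower in males, where 23.2% of all genes tested were higher and 22.6% lower, shares that also stand beside the lists that follow. They were led by the transporters SLC27A6 with a log2 fold change of 8.26 (SE 0.41, adjusted p = 5.55e-13) and slc27a2b with 2.32 (SE 0.20, adjusted p = 2.71e-09), and by acsl1b, which activates long-chain fatty acids to acyl-CoA, with -5.74 (SE 0.56, adjusted p = 2.5e-08), all by edgeR. The list's median was 0.05, near the 0.06 of all genes. Of 11 tested genes of lipid droplets and triglyceride turnover, 6 were higher and 1 was lower in males, with a median of 0.48. Among them DGAT2, which makes the last step of triglyceride synthesis, had 1.56 (SE 0.30, adjusted p = 0.000175), the lipase lipea 0.63 (SE 0.12, adjusted p = 0.000143) and the droplet protein CIDEC -2.17 (SE 0.29, adjusted p = 1.69e-06).

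Of 11 tested nuclear receptors of fatty and bile acids and their partners, 2 were higher and 1 was lower in males, with a median of -0.05. HNF4A, a regulator of liver genes, had a log2 fold change of 1.12 (SE 0.17, adjusted p = 8.9e-06), pparg 0.56 (SE 0.22, adjusted p = 0.043) and rxrga -0.48 (SE 0.12, adjusted p = 0.00203) by edgeR. The only tested relative among the retinoid binding proteins, rbp5, was higher in males with 2.16 (SE 0.29, adjusted p = 2.43e-06). In the treatment comparisons across both sexes 0 genes of these lists were called by edgeR. The most expressed of the uptake list, DBI, which binds acyl-CoA, was at -0.33 (SE 0.25) for OF-control and 0.39 (SE 0.25) for NF-training, each against NF-control. For OF-control against NF-control the lipase LPL was at -0.08 (SE 0.27), the receptor hnf4b at 0.41 (SE 0.29) and rbp5 at 0.16 (SE 0.40). For NF-training against NF-control LPL was at -0.18 (SE 0.27), hnf4b at 0.24 (SE 0.29) and rbp5 at 0.68 (SE 0.39).

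After the mean of each cell of group and sex was taken off, the genes most like a member over the 24 fish were found among 15329 tested genes with a symbol, as a description of fish that share their cell means and depth. FABP3 was most like ACADM, an enzyme of mitochondrial fatty acid oxidation, with Pearson's r of 0.91 and Spearman's rho of 0.86, then tlcd4b with 0.89 and 0.83 and serpinf2b with 0.88 and 0.81. For fabp10a the genes were si:dkey-193i10.6 with r of 0.85 and rho of 0.65, DKK3 with 0.85 and 0.86 and si:cabz01078080.2 with 0.85 and 0.71. For FABP2 they were ATP2B1 with 0.86 and 0.73, FOXRED1 with 0.80 and 0.75 and si:ch73-46n24.6 with 0.79 and 0.71. NF-control replicate 4, the highest liver for FABP2, is among these fish. So is NF-training replicate 3, the highest liver of its group for fabp10a and the lowest for FABP3. No likeness was computed without either of them.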

How the data were processed

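Liver RNA of 24 zebrafish was sequenced by the authors on a BGISEQ-500. Per the labels and the methods, reads were trimmed with Trim Galore 0.6.4 and quantified with kallisto against GRCz11. The authors deposited, for each fish, a table of estimated counts by gene, without scaling, and a table of TPM, which allows for transcript length and has a fixed sum. The step from transcripts to genes is not given in the sources used here. Groups, sex and replicate numbers came from the labels.

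Estimated counts were rounded and fitted with edgeR 4.0.16 in R 4.3.3 (filterByExpr by group with a minimum count of 10, TMM, quasi-likelihood test, group and sex as additive terms over the 24 fish, or the 8 cells of group and sex for interactions with sex and differences inside a cell). P-values were adjusted by Benjamini-Hochberg over 16223 genes, and DESeq2 1.42.0, limma 3.58.1 on counts with voom and limma on log2(TPM + 1) were alternatives. A standard error is the fold change divided by the root of edgeR's F, and 95% intervals are normal. The additive edgeR fit was run on simulated counts for NF-training against NF-control. These were drawn from the fit's own means and spread, with no fish set apart as NF-control replicate 4 is, so they are no support for the results above. The other comparisons, the other tools and the permutation tests were not simulated. Whether replicate numbers pair fish was checked on residuals: the 36 pairs of fish with the same number in different groups had a median correlation of -0.01, with 8 over 0.1, so no pairing was used.

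All members found are named. Of each related list, up to 3 genes with the smallest adjusted p under 0.05 in a comparison are named, or else the most expressed gene, and for the 3 tested members with the highest mean TPM the 3 genes most like them. Members, lists and tests were chosen with earlier results of these data known. Floors cover counting error only. No sequences or coordinates are given, as no genome of the authors' build was used here.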

Additional observations from a re-analysis of the deposited data

Results flagged for a closer look

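In a group of 6 fish, 1 liver can stand apart from the other 5. The gap of the highest or lowest fish to its neighbour, divided by the range of the group, was compared with Dixon's critical value of 0.625 for 31 combinations of FABP gene and group in which at least 1 fish reached 10 counts. It was exceeded in 10 of them. Chance alone exceeds it in about 1 in 20 groups of normally distributed values, and CPM from few counts need not be so distributed. A combination also entered through its highest fish, so the 10 cannot be read against that share. As males and females are pooled in a group, a sex difference also widens its range.

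Of these, 3 concerned NF-control replicate 4, a male, with 704 CPM for FABP2 (next fish 16.0 CPM), 118 CPM for FABP1 ENSDARG00000059227 (next 0.960 CPM) and 0.751 CPM for FABP7 ENSDARG00000034650 (next 0.0960 CPM). NF-training replicate 3, a female, had 50.8 CPM for FABP7 ENSDARG00000007697 (next 15.5 CPM) and 0.567 CPM for FABP7 ENSDARG00000034650 (next 0.0894 CPM). OF-control replicate 3, a male, had 10.4 CPM for fabp4a (next 6.12 CPM) and 15.7 CPM for FABP1 ENSDARG00000059227 (next 5.26 CPM), and OF-control replicate 2, a male, had 7.59 CPM for FABP2 (next 2.31 CPM). OF-training replicate 6, a male, had 0.711 CPM for FABP6 (next 0.0321 CPM), and NF-training replicate 6, a male, had 1.965 CPM for fabp10b (next 0.929 CPM).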

How the results depend on the processing

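The number of tested members called between the sexes, 4, was 1 with the replicate block (fabp4a alone), 0 in the 6 NF-control fish alone, and 2 to 5 over the 24 fits that each left out 1 fish. FABP2 and fabp10b did not pass the filter on low counts in the 6 NF-control fish alone. The shares of all genes called in these fits are not given beside these counts, so a lower count cannot be read as a result about the members. In the other 8 comparisons 0 members were called under every alternative that was run, each left-out fish included, except for 1 with DESeq2, FABP2 in OF-control against NF-control. There DESeq2 called 77 of 16223 genes. With the block the adjusted p was 0.139 for fabp10a, 0.112 for FABP3 and 0.119 for FABP2, but replicate numbers were not found to pair fish. Replicates 1 to 3 were females and 4 to 6 males in every group except OF-control, where it was the reverse. The block thus overlaps with sex, and a call lost with it cannot be told apart from this overlap. The block could not be fitted for the interaction of sex and overfeeding. FABP3 turned from -0.37 to 1.07 with library size alone, 0.29 on log2(TPM + 1), with and without a filter, and 0.29 on log2(TPM + 0.1), and its call was lost without a filter on low counts (adjusted p = 0.0888). Library size alone called 14428 genes between the sexes, 14025 of them as higher in males, and log2(TPM + 1) called 8777 with 7550 higher, against 7425 with 3757 higher by TMM. With these scalings fabp10b was called as higher in males, with adjusted p-values of 1.54e-05 and 0.0052. Leaving out NF-control replicate 4 and NF-training replicate 3, chosen after seeing the data, kept the calls of fabp10a, fabp4a and FABP3 between the sexes, while FABP2 had an adjusted p of 0.113. NF-training replicate 3 was the female with the most fabp10a and fabp4a and the least FABP3. NF-control replicate 4 was the male with the least fabp4a, but also with the least FABP3. The choice thus favours the calls of fabp10a and fabp4a, and these kept calls are no separate support. Depth limits fabp10b, FABP6 and, in females, FABP1 and FABP2, where vitellogenin leaves few counts.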
